A study of Homo sapiens with 60 samples.

Results

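A set of 10 immediate early genes was followed through 60 RNA-seq libraries of A549 cells treated with herbal extracts or vehicle: FOS, FOSB, FOSL1, JUN, JUNB, ATF3, EGR1, IER2, IER3 and DUSP1. They were chosen by name, as 10 of 60675 genes in the count table, and all 10 passed the filter on low counts in each fit. A549 is a long-used cell line from a human lung adenocarcinoma. Cells were harvested 24 h after treatment, and each group below is this line under 1 treatment. The 3 vehicle libraries had received DMSO (0.1% in the sample labels and 2% in the series text, which the sources used here do not settle). Sayeok-tang (n = 3 libraries per dose) and Bojungikgi-tang (n = 2), both herbal formulas extracted in hot water, were given at 500, 100 and 20 µg/mL. The other 6 treatments were single herbs extracted in 70% ethanol. Pinelliae Tuber (called Pinellia), Zingiberis Rhizoma (dried ginger) and Zingiberis Rhizoma Recens (fresh ginger) were used at 500, 100 and 20 µg/mL, each dose in 3 libraries. Scutellariae Radix (Scutellaria) was used at 190, 38 and 7.6 µg/mL, again in 3 libraries each. A single library per dose was made for Zizyphi Fructus (Zizyphus; 500, 100 and 20 µg/mL) and for Coptidis Rhizoma (Coptis; 110, 22 and 4.4 µg/mL). Per the series text, an extract whose IC20 lay under 500 µg/mL was given at its IC20 and at dilutions of that dose. The doses of each extract are called high, medium and low.

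Immediate early genes are transcribed within minutes of a stimulus without new protein synthesis, and many of their RNAs decay again soon after. The AP-1 factor is a dimer of a Fos protein (FOS, FOSB, FOSL1 or FOSL2) with a Jun protein, or of Jun with an ATF protein. FOS and EGR1 are textbook targets of the ERK MAP kinase pathway through serum response factor (SRF), which binds the CArG box. FOSL1 is the Fos protein associated with sustained ERK signalling. ATF3 is a stress-inducible member of the ATF/CREB family. Of the 10, DUSP1 encodes a phosphatase that inactivates MAP kinases and IER3 a regulator of survival and ERK signalling, so the name transcription factor does not cover those genes.

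Regulatory sequence of 4 members is shown because their start-site windows hold matches to motifs of the factors that act on immediate early genes. RefSeq start-site windows (GRCh38.p14; 250 bases before to 50 after the start) were found for 8 of the 10 members, in 9 windows, and none was matched for FOSL1 or IER3. The windows were searched on both strands for the CArG box, TGANTCA (AP-1), TGACNTCA (ATF/CREB and Jun-ATF) and TGATGNAAN (C/EBP-ATF), which do not contain one another. EGR1 held a pair of CArG boxes (capitals) in the 250 bases before its start, chr5:138465229-138465478, plus strand:
EGR1: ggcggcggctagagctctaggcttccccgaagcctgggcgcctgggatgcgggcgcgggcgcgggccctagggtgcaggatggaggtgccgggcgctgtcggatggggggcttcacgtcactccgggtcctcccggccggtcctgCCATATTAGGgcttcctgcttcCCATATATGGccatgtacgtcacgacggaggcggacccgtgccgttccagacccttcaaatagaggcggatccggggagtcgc
The TGACNTCA sites of JUN (minus strand, chr1:58784096-58784125), ATF3 (plus strand, chr1:212565273-212565302) and DUSP1 (minus strand, chr5:172771302-172771331) are in capitals in these 30-base stretches, each 5′ to 3′ on the strand of its gene:
JUN: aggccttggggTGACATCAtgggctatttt
ATF3: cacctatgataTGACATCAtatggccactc
DUSP1: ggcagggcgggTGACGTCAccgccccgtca
JUN and ATF3 carried the same 8 letters, TGACATCA, and DUSP1 carried TGACGTCA. ATF3 also held TGATGGAAG at chr1:212565216-212565224. All ATF3 matches lay in the first of its 2 windows, and the second (250 bases before the start at chr1:212614768-212615017) held none. Any other start of ATF3 was outside the search. No match to the 4 motifs was found in the windows of FOS, FOSB, JUNB and IER2. Sites more than 250 bases before or 50 after a start were outside the search. The absence of a match therefore does not show that a gene lacks such a site. Among 35116 windows of this length in the RefSeq table, 1.29% held a CArG box, 7.71% TGANTCA, 7.72% TGACNTCA and 3.61% TGATGNAAN. A match is a description of letters and says nothing about binding.

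Library totals ran from 17.51 M to 38.54 M counts, with a median of 23.53 M, and 22421 to 24450 genes had a count. Levels are in CPM, the usual depth-scaled count unit, after TMM scaling over all 60 libraries (M stands for mega). Mitochondrial transcripts took 8.29% to 15.9% of counts, and the highest 2 shares, 15.9% and 15.0%, were those of medium and low Coptis. Of 14 markers listed for A549 and lung epithelium, 10 had a median of at least 1 CPM, led by KRT8, KRT18, KRT7 and AKR1B10, while NKX2-1, SFTPB and SFTPC, factors and products of alveolar epithelium, were under 0.1 CPM. Of 6 leukocyte markers, PTPRC, CD3E, LYZ and MS4A1 had a median of 0, CD14 one of 1.68 CPM and CD68, also a general lysosomal protein, one of 8.11 CPM. Of 5 fibroblast markers, COL1A1 had a median of 29.97 CPM, while COL1A2 and DCN were at 0. The 4 endothelial markers were under 0.1 CPM. In bulk RNA, fewer cells with a transcript and less of it per cell cannot be told apart. Nothing in the labels ties replicates to separate cultures, and the p-values then reflect only the spread among these libraries, which may be technical. Sample codes begin with C1 for vehicle and with 8 to 11 for the extracts. Extracts that share this first code are called a label set here, and the labels do not say what the code stands for. All titles, vehicle included, name the same batch, Second_BatchC. A difference in handling or solvent between vehicle and the extracts still cannot be told apart from treatment. All comparisons with vehicle share the same 3 vehicle libraries, while comparisons between doses use them only through the filter, scaling and shared estimate of spread. Libraries of small groups can lie apart where no difference passed the test, as EGR1 did with medium Sayeok-tang against vehicle (adjusted p = 0.62 by edgeR). Lack of overlap is therefore a description below and no support beside the test.

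Per kilobase of exon, the vehicle levels of the 10 genes spanned a wide range. DUSP1 stood highest, with 73.8 to 75.5 CPM per kb, followed by IER3 (40.9 to 47.5), JUNB (30.5 to 37.4) and IER2 (17.8 to 20.3). FOSL1 lay at 15.1 to 16.1 CPM per kb, JUN at 9.32 to 9.85, ATF3 at 1.97 to 2.27 and FOS at 0.966 to 1.16. EGR1 (0.446 to 0.485) and FOSB (0.162 to 0.238) were the lowest. No 2 neighbours in this order overlapped in the 3 vehicle libraries. The order depends on exon lengths that join all annotated exons of a gene, which can exceed the length of its main transcript. Raw counts were 11 to 62 for FOSB, 12 to 81 for EGR1 and 37 to 144 for FOS over the 60 libraries, so these 3 genes carry the widest errors.

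**Figure D1:**
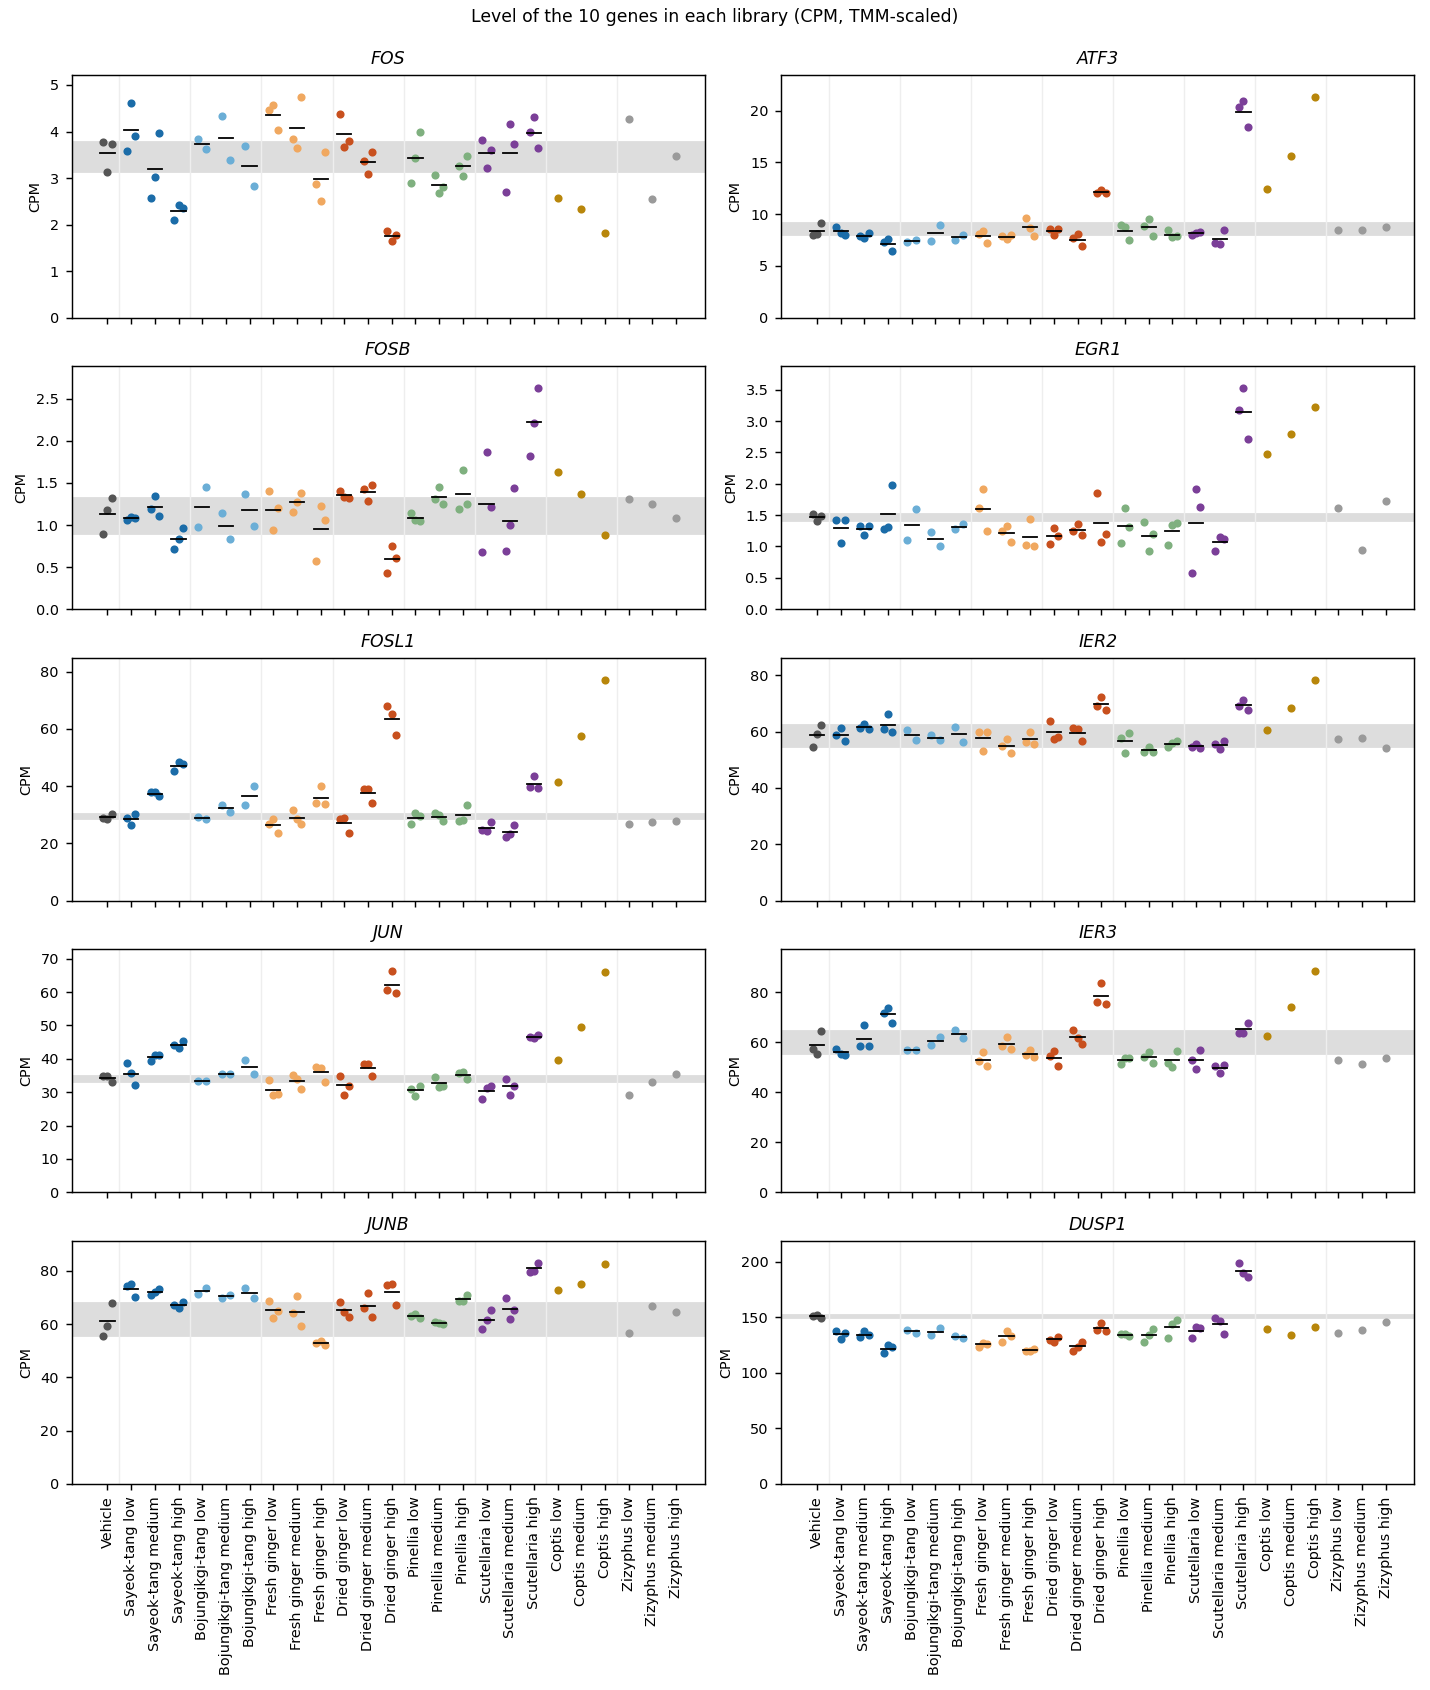
Level of each gene in every library (CPM, linear axis from 0) by extract and dose, with vehicle first. Points are libraries, black bars group means, and the grey band spans the 3 vehicle libraries. FOSL1 and JUN lie above the vehicle band at the high doses of dried ginger, Scutellaria, Coptis and Sayeok-tang, FOS is lowest with dried ginger and Coptis, and EGR1 and ATF3 stand out with Scutellaria and Coptis.

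Within the Fos family, FOS and FOSL1 moved in opposite directions with dried ginger and Sayeok-tang. FOS (chr14:75278774-75282230, GRCh38, plus strand) is the Fos protein most tied to brief stimuli. FOS stood at 3.77, 3.13 and 3.72 CPM in vehicle, at 4.38, 3.66 and 3.80 CPM with low dried ginger and at 1.85, 1.64 and 1.78 CPM with high dried ginger. The high-dose libraries lay below every vehicle, low-dose and medium-dose library, and the log2 change of FOS was -1.16 ± 0.15 (SE) against the low dose (edgeR quasi-likelihood test, adjusted p = 3.05e-07) and -1.0006 ± 0.15 against vehicle (adjusted p = 2.88e-06). With high Sayeok-tang FOS was 2.10, 2.41 and 2.35 CPM, also below every vehicle and low-dose library. Its log2 change there was -0.82 ± 0.16 against the low dose (adjusted p = 0.000533 by edgeR) and -0.63 ± 0.16 against vehicle (adjusted p = 0.00383). With fresh ginger FOS was 2.87, 2.52 and 3.55 CPM at the high dose and 4.46, 4.56 and 4.03 CPM at the low dose. That log2 change of -0.56 ± 0.14 passed the test against the low dose (adjusted p = 0.0153 by edgeR) but not against vehicle, and it was not called without the first or second library of either dose (adjusted p 0.0638 to 0.136). FOS was the 1 member that did not pass the test with high Scutellaria, where it was 3.98, 4.31 and 3.64 CPM.

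FOSL1 (chr11:65892049-65900573, minus strand) ran the other way. In vehicle it was 28.8, 28.4 and 30.4 CPM, and the low doses of the 6 replicated extracts held 23.5 to 30.6 CPM. High dried ginger gave 67.9, 65.1 and 57.7 CPM, high Sayeok-tang 45.2, 48.4 and 47.7 CPM, and high Scutellaria 39.7, 43.5 and 39.2 CPM. Each of these groups lay wholly above vehicle and above its own low dose. FOSL1 rose from low to high dose in 5 of 6 replicated extracts (edgeR): by 1.22 ± 0.09 on the log2 scale with dried ginger, 0.72 ± 0.06 with Sayeok-tang, 0.68 ± 0.07 with Scutellaria, 0.46 ± 0.09 with fresh ginger and 0.33 ± 0.07 with Bojungikgi-tang. The exception was Pinellia, at 0.04. The Bojungikgi-tang rise (33.5 and 39.9 against 29.1 and 28.7 CPM) rested on pairs of libraries and was called in 1 of 4 fits that left out a library, with an adjusted p of 0.123 to 0.353 in the others. At 100 µg/mL FOSL1 was already above vehicle with Sayeok-tang (37.8, 37.8 and 36.6 CPM, adjusted p = 4.16e-05 by edgeR) and with dried ginger (39.14, 39.05 and 34.15 CPM, adjusted p = 0.0237). The dried ginger call was lost in 5 of 6 fits that left out a library, up to an adjusted p of 0.104. With medium Scutellaria FOSL1 was lower than vehicle, at 22.2, 23.2 and 26.3 CPM (adjusted p = 0.0119 by edgeR), a call lost without vehicle replicate 3 or treated replicate 1 or 2 (adjusted p 0.0662 to 0.0715).

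FOSB (chr19:45467995-45475179, plus strand), the Fos protein closest to FOS, fell with dried ginger and rose with Scutellaria. High dried ginger held 0.434, 0.753 and 0.611 CPM against 0.899, 1.17 and 1.32 CPM in vehicle and 1.41, 1.33 and 1.32 CPM at the low dose. High Scutellaria held 1.82, 2.22 and 2.63 CPM. Neither group overlapped vehicle, and the log2 changes were -0.91 ± 0.25 (adjusted p = 0.00487 by edgeR) and 0.98 ± 0.24 (adjusted p = 0.000959). Low Scutellaria spread from 0.675 to 1.87 CPM, and the high against low change of 0.81 ± 0.24 fell to 0.53 without its first library (adjusted p = 0.103 by edgeR). It was also not called without high-dose replicate 3 (adjusted p = 0.0681). FOSB overlaps ERCC1, a DNA repair gene of 77.7 CPM on the opposite strand, and the sources used here do not state whether counting used strand.

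The ratio of FOSL1 to FOS, both in CPM per kb, describes this shift within libraries. Vehicle libraries had 13.1 to 15.6 times as much FOSL1 as FOS RNA by this measure. The lengths join all annotated exons of a gene, 3238 bases for FOS and 1887 for FOSL1. A shorter FOS transcript would lower every ratio by the same factor, so the ratios are read between groups. High Sayeok-tang had 34.4 to 37.0 and high dried ginger 55.6 to 68.1 times as much, with no overlap with vehicle. The single library of high Coptis had a ratio of 72.95. High Scutellaria, where FOS was not called, had 17.1 to 18.5, also wholly above vehicle, and high Pinellia 14.7 to 16.5. High fresh ginger (16.35 to 27.28) and medium dried ginger (16.47 to 21.71), Sayeok-tang (15.79 to 25.17) and Pinellia (16.94 to 19.28) lay wholly above vehicle too. Neither gene was called against vehicle with medium Pinellia, so lack of overlap with 3 vehicle libraries shows little by itself. Low fresh ginger (10.03 to 10.67) and low Scutellaria (11.03 to 13.09) lay wholly below vehicle.

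**Figure D2:**
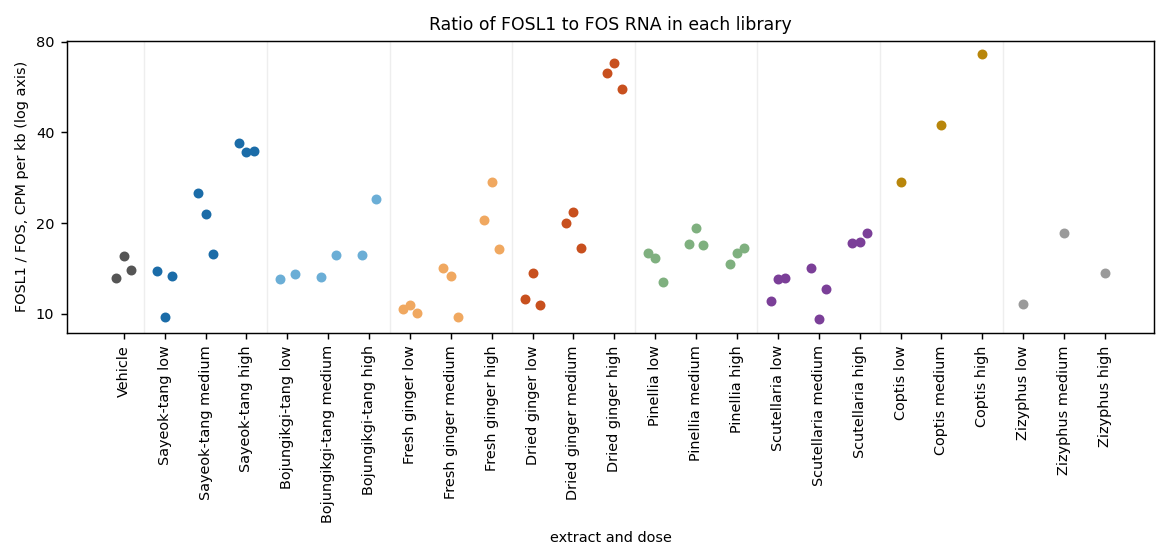
Ratio of FOSL1 to FOS RNA (both in CPM per kb of exon, log axis) in each library, by extract and dose. Each point is 1 library. The 3 vehicle libraries lie between 13.1 and 15.6, the high dried ginger libraries between 55.6 and 68.1, and Coptis reaches 72.95 at the high dose.

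In the Jun family, JUN rose at the high dose of the same 3 extracts in which FOSL1 changed most. JUN (chr1:58780788-58784327, minus strand) is the main activating partner of Fos proteins. It was 34.9, 34.8 and 33.0 CPM in vehicle, 60.6, 66.2 and 59.8 CPM with high dried ginger, 46.7, 46.1 and 47.0 CPM with high Scutellaria and 44.0, 43.2 and 45.4 CPM with high Sayeok-tang. None of these high-dose libraries overlapped vehicle. JUN rose from low to high dose by 0.96 ± 0.07 on the log2 scale with dried ginger, 0.61 ± 0.05 with Scutellaria and 0.31 ± 0.05 with Sayeok-tang (edgeR adjusted p of 4.05e-12, 5.53e-12 and 5.93e-05). Over the other 3 replicated extracts the log2 change from low to high dose was 0.18 to 0.22 and not called. For fresh ginger that JUN change was called by edgeR with the replicate block (adjusted p = 0.0222), with all 60 libraries in 1 fit (0.023), without the filter (0.00857) and without low-dose replicate 1 (0.0264) or high-dose replicate 3 (0.0334). With low Scutellaria JUN was 28.0, 31.3 and 31.9 CPM, lower than vehicle (adjusted p = 0.0404 by edgeR), a call lost in 4 of 6 fits that left out a library.

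JUNB (chr19:12791496-12793315, plus strand), a Jun protein that can restrain JUN, was called higher than vehicle in 9 of 18 comparisons by edgeR. Vehicle libraries themselves spread, at 55.6, 59.3 and 68.0 CPM. All 3 doses of Sayeok-tang were called higher than vehicle, at 74.4, 75.1 and 70.3 CPM for the low dose and 67.3, 66.2 and 68.1 CPM for the high dose. The high-dose libraries overlapped vehicle. The difference between those doses did not pass the test (-0.13 ± 0.05, adjusted p = 0.103 by edgeR). The high Sayeok-tang call (0.14 ± 0.05 on the log2 scale, adjusted p = 0.0343 by edgeR) was lost in 5 of 6 fits that left out a library, at an adjusted p of 0.0624 to 0.245. High Scutellaria held 79.7, 80.1 and 83.0 CPM, above every vehicle and low-dose library, and changed by 0.41 ± 0.05 against vehicle (adjusted p = 3.03e-08 by edgeR). High fresh ginger went the other way, at 52.8, 53.6 and 52.2 CPM against 68.5, 62.4 and 64.8 CPM at the low dose (-0.30 ± 0.07, adjusted p = 0.0134 by edgeR). That fall was not called without high-dose replicate 1 or 3 or low-dose replicate 1 (adjusted p 0.0647 to 0.0986). Against vehicle, high fresh ginger was not called for JUNB in the fit by label set, but it was called lower with all 60 libraries in 1 edgeR fit (-0.20, adjusted p = 0.00574), without the filter (0.00235), by DESeq2 (0.0319) and without vehicle replicate 1 (0.0214). Of 9 JUNB calls against vehicle, 4 were kept whichever library was left out. JUNB overlaps HOOK2, a gene of 6.66 CPM on the opposite strand.

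ATF3 (chr1:212565334-212620777, plus strand) rose with 2 of the 6 replicated extracts. It was 7.95, 8.04 and 9.17 CPM in vehicle, 20.4, 21.0 and 18.4 CPM with high Scutellaria and 12.02, 12.36 and 12.02 CPM with high dried ginger. All 6 libraries lay above every vehicle and low-dose library. The log2 change against the low dose was 1.29 ± 0.08 with Scutellaria (adjusted p = 1.67e-15 by edgeR) and 0.54 ± 0.08 with dried ginger (adjusted p = 7.99e-06). In the other 4 replicated extracts ATF3 spanned 6.42 to 9.59 CPM at the high dose, and no comparison with vehicle was called.

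EGR1 (chr5:138465490-138469315, plus strand), a zinc finger factor that ERK signalling induces, rose in 1 replicated extract. It was 1.522, 1.401 and 1.481 CPM in vehicle and 3.18, 3.52 and 2.71 CPM with high Scutellaria, with no overlap. The log2 change was 1.09 ± 0.22 against vehicle and 1.17 ± 0.23 against the low dose (edgeR adjusted p of 7.55e-05 and 8.59e-05). With high dried ginger, where ATF3 rose, EGR1 was 1.85, 1.06 and 1.20 CPM, on both sides of vehicle.

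IER2 (chr19:13150415-13154908, plus strand) and IER3 (chr6:30743199-30744554, minus strand) encode immediate early response proteins. IER2, at 54.6, 59.3 and 62.3 CPM in vehicle, was 69.1, 72.3 and 67.6 CPM with high dried ginger and 69.2, 71.4 and 67.8 CPM with high Scutellaria. Both groups lay above vehicle, by 0.24 ± 0.05 and 0.24 ± 0.04 on the log2 scale (edgeR adjusted p of 0.000557 and 2.02e-05). IER3 was 57.5, 55.5 and 64.4 CPM in vehicle, 76.3, 83.7 and 75.5 CPM with high dried ginger and 72.0, 73.8 and 67.9 CPM with high Sayeok-tang, again above every vehicle library. From low to high dose IER3 rose by 0.54 ± 0.06 with dried ginger, 0.34 ± 0.05 with Sayeok-tang and 0.30 ± 0.05 with Scutellaria (edgeR adjusted p of 1.04e-08, 3.57e-05 and 4.46e-05). High Scutellaria held 64.0, 63.8 and 67.8 CPM, which overlapped vehicle, and its call against vehicle (0.14 ± 0.05, adjusted p = 0.0249 by edgeR) was lost without vehicle replicate 1 or 2 or treated replicate 3 (adjusted p 0.0971 to 0.184). High Pinellia was lower than vehicle at 51.6, 50.3 and 56.5 CPM (-0.16 ± 0.05, adjusted p = 0.0472 by edgeR). That call was lost without vehicle replicate 3 (-0.0986, adjusted p = 0.319) and without treated replicate 1 or 2. With medium Scutellaria IER3 was 50.5, 47.9 and 51.0 CPM, lower than vehicle (log2 change -0.24 ± 0.05, adjusted p = 0.00342 by edgeR).

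DUSP1 (chr5:172768090-172771195, minus strand) was the member called most often against vehicle, and most of its calls were lower. Vehicle libraries lay close together, at 151, 152 and 149 CPM. By edgeR, DUSP1 was lower in 15 of 18 comparisons with vehicle, all 6 low doses included, and higher in 1, high Scutellaria. The low doses held 123 to 142 CPM, and no library of the 15 groups called lower reached the lowest vehicle library. The log2 change among the calls ran from -0.32 with high fresh ginger to -0.10 with high dried ginger. High Scutellaria held 199, 190 and 186 CPM, above every other library, and changed by 0.35 ± 0.04 against vehicle (adjusted p = 7.37e-09 by edgeR) and 0.48 ± 0.04 against the low dose (adjusted p = 9.72e-12). From low to high dose DUSP1 fell by 0.15 with Sayeok-tang (log2, adjusted p = 0.00192 by edgeR) and rose by 0.11 ± 0.04 with dried ginger (adjusted p = 0.0152). The dried ginger rise was not called without the second library of either dose (adjusted p 0.0569 and 0.0852). Of 16 DUSP1 calls against vehicle, 9 were kept whichever library was left out. High dried ginger was not among those 9, with adjusted p values of 0.0617 to 0.103 in the 4 fits that lost it. DUSP1 was below vehicle at every low dose, and its treatment effect cannot be told apart from a handling or solvent difference between vehicle and all extracts.

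**Figure D3:**
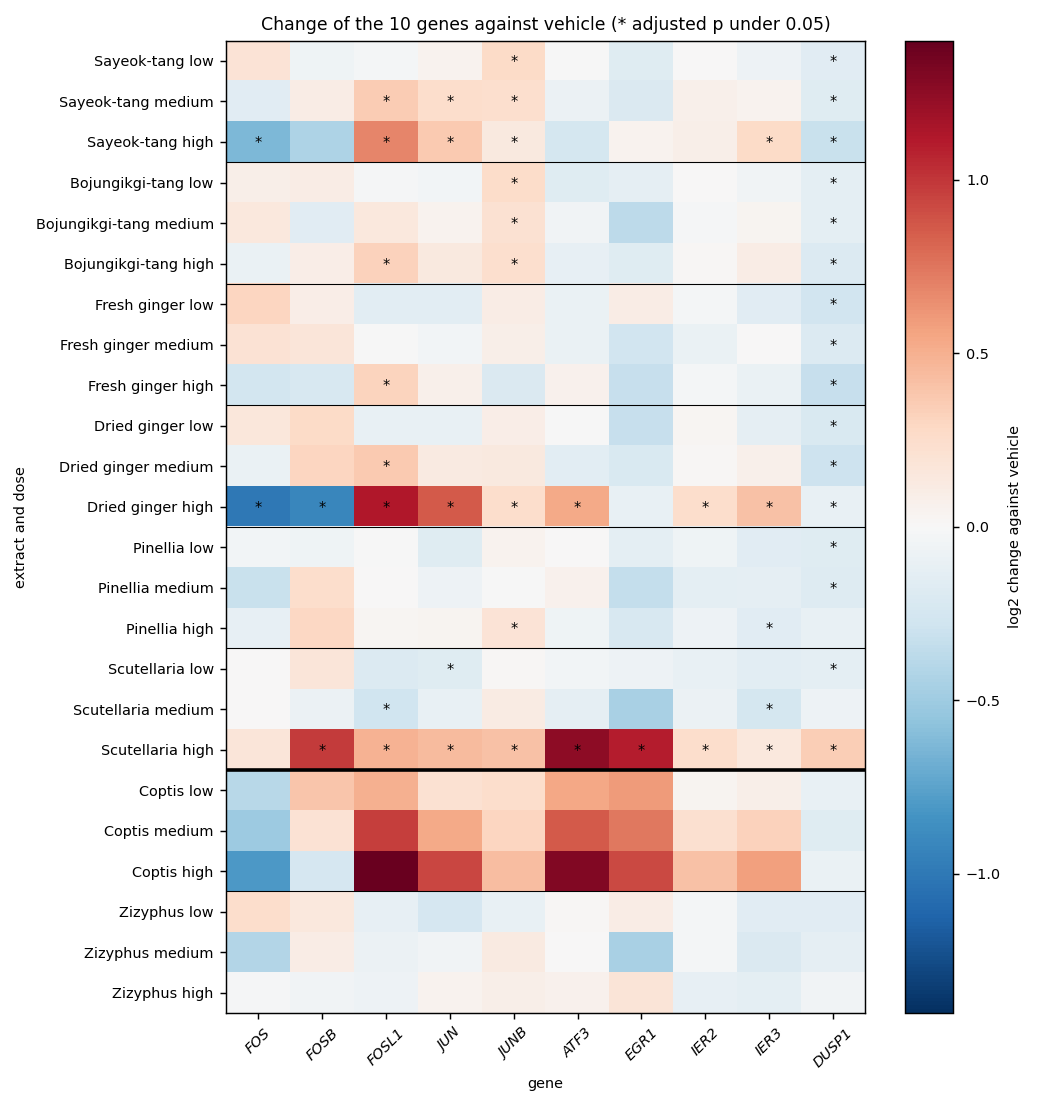
Log2 change of each gene against vehicle (colour) by extract and dose. Stars mark adjusted p under 0.05 in the edgeR test, and the 6 rows under the thick line, Coptis and Zizyphus, have 1 library each and no test. DUSP1 is called lower in 15 rows, and dried ginger and Scutellaria have 9 starred genes at the high dose.

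The share of members called was read against the share of all genes called. With high Scutellaria 9 of 10 members were called against vehicle (all higher) where 40.3% of genes were, and 9 against the low dose where 31.0% were. High dried ginger had 9 members called (6 higher, 3 lower) against vehicle with 39.2% of genes, and 8 (6 higher, 2 lower) against the low dose with 32.8%. High Sayeok-tang had 6 members called (4 higher, 2 lower) with 18.9% of genes, and 5 (3 higher, 2 lower) against the low dose with 7.58%. High fresh ginger had 2 (FOSL1 higher, DUSP1 lower) with 13.4%, and 3 against the low dose with 3.67%. Its FOSL1 call against vehicle was lost in 4 of 6 fits that left out a library: any vehicle library or the second treated one (adjusted p 0.0576 to 0.174). High Bojungikgi-tang had 3 (FOSL1 and JUNB higher, DUSP1 lower) with 3.73%, of which FOSL1 was lost without its replicate 3 (adjusted p = 0.127) and JUNB without its replicate 2 (adjusted p = 0.184), and 1 against the low dose with 0.712%. High Pinellia had 2 (JUNB higher, IER3 lower) with 8.93%, and 0 against the low dose with 0.0663%, where 2 members (JUN and JUNB) had an unadjusted p under 0.05 and DESeq2 also called 0.

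At the medium dose the counts were 4 of 10 with Sayeok-tang (10.8% of all genes called), 2 with Bojungikgi-tang (1.94%), 1 with fresh ginger (0.77%), 2 with dried ginger (6.15%), 1 with Pinellia (7.17%) and 2 with Scutellaria (8.9%). At the low dose they were 2 with Sayeok-tang (8.34%), 2 with Bojungikgi-tang (6.94%), 1 with fresh ginger (6.48%), 1 with dried ginger (3.6%), 1 with Pinellia (5.51%) and 2 with Scutellaria (8.89%). Of these low-dose calls all but 3 were DUSP1: JUNB with both formulas and JUN with Scutellaria. The medium Bojungikgi-tang count fell to 0 without vehicle replicate 2 or its own replicate 2, and the low-dose count without its own replicate 3.

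**Figure D4:**
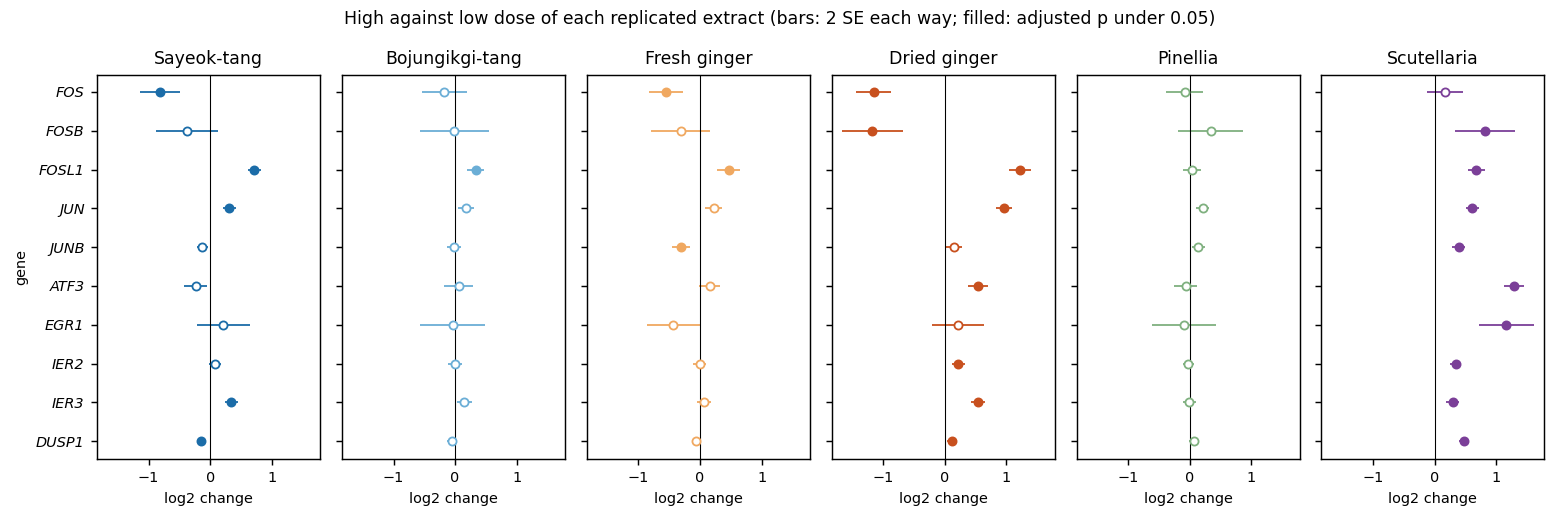
Log2 change of each gene from the low to the high dose in the 6 replicated extracts, with bars of 2 SE each way. Filled points passed adjusted p under 0.05 in the edgeR test. FOS and FOSB lie left of zero and FOSL1 and JUN right of it with dried ginger, all 10 genes lie right of zero with Scutellaria, 9 of them filled, and no point is filled with Pinellia.

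The 2 gingers, different preparations of the same rhizome given at the same doses, differed in 8 of 10 members at 500 µg/mL (22.5% of all genes called). Fresh ginger had the lower FOSL1 (33.82 to 39.99 against 57.7 to 67.9 CPM), JUN (33.0 to 37.5 against 59.8 to 66.2 CPM) and IER3 (54.2 to 56.9 against 75.5 to 83.7 CPM). JUNB, ATF3, IER2 and DUSP1 were lower too, and FOS was higher. None of the 8 overlapped between the 2 groups. They had been picked by the test on the same libraries, so this is no separate support, and the share of all genes without overlap was not computed. The change from low to high dose itself differed between the gingers for 6 members (11.2% of all genes called in that contrast, edgeR). The change in fresh minus that in dried ginger was -0.76 ± 0.13 for FOSL1, -0.73 ± 0.10 for JUN, -0.47 ± 0.08 for IER3, -0.45 ± 0.10 for JUNB, -0.38 ± 0.12 for ATF3 and -0.17 ± 0.05 for DUSP1, in log2 units. The estimates for JUNB and DUSP1 had opposite signs in the 2 gingers, but for each gene only 1 of the 2 changes was called. JUNB changed by -0.30 with fresh ginger (called) and 0.14 with dried ginger (not called). DUSP1 changed by -0.06 with fresh ginger (not called) and 0.11 with dried ginger (called). Both calls were lost in some fits that left out a library. The ATF3 difference (adjusted p = 0.0396 by edgeR) was not called by DESeq2 (adjusted p = 0.0867) or without the filter on low counts (0.0756), nor was DUSP1 without the filter (0.088).

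Between the 2 water-extracted formulas at 500 µg/mL, 2 members differed (2.05% of all genes called). FOSL1 was higher with Sayeok-tang than with Bojungikgi-tang by 0.37 ± 0.06 (45.2 to 48.4 against 33.5 and 39.9 CPM, adjusted p = 0.00011 by edgeR) and JUN by 0.23 ± 0.06 (43.2 to 45.4 against 39.6 and 35.5 CPM, adjusted p = 0.0241). The JUN call was lost without Sayeok-tang replicate 1 or 3 or Bojungikgi-tang replicate 3, and the FOSL1 call without Bojungikgi-tang replicate 2 (adjusted p = 0.0836). FOSL1 was also the 1 member whose dose change differed between the formulas, by 0.39 ± 0.09 (adjusted p = 0.0407 by edgeR, 0.275% of all genes called). Over the 5 extracts given at both 500 and 20 µg/mL, the dose change differed among extracts for 9 of 10 members, EGR1 being the exception (edgeR test with 4 degrees of freedom, 18.6% of all genes called).

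Coptis and Zizyphus had 1 library per dose and no replicate check, so a gene counts as past a size rule when it is at least 2-fold from the vehicle mean (after adding 0.5 CPM), outside the vehicle range, and at least 5 CPM on average. FOS, FOSB and EGR1 averaged under 5 CPM and could not pass, and the shares of genes cover only those of at least 5 CPM. Dropping that minimum changed no count of members. With high Coptis 2 of 10 members passed the rule (1.56% of 10973 genes did): FOSL1 at 77.1 CPM and ATF3 at 21.4 CPM, 2.64 and 2.55 times the vehicle mean. The exact Poisson intervals at 95%, which cover counting error only, were 73.5 to 80.8 and 19.5 to 23.4 CPM. JUN was 66.0 CPM, 1.93 times vehicle, and FOS 1.81 CPM, 0.513 times. FOSL1 was 41.3, 57.5 and 77.1 CPM over the low, medium and high dose, JUN 39.8, 49.5 and 66.0 CPM, ATF3 12.4, 15.6 and 21.4 CPM and EGR1 2.48, 2.79 and 3.23 CPM. FOS was 2.58, 2.33 and 1.81 CPM. At the medium and low dose 0 of 10 members passed (0.62% and 0.255% of genes did), and those libraries had 15.9% and 15.0% mitochondrial counts against 9.92% at the high dose, whose part in the result was not tested. With Zizyphus 0 members passed at the high, medium or low dose (0.1%, 0.1% and 0.118% of genes did), and FOSL1 was 27.7, 27.4 and 26.9 CPM.

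Neighbouring genes of these pathways were read from lists chosen with the members in mind and with earlier results of these data known. Their counts are descriptions, to be read against the share of all genes called versus vehicle at the high dose. That share was 40.3% with Scutellaria, 39.2% with dried ginger, 18.9% with Sayeok-tang, 13.4% with fresh ginger, 8.93% with Pinellia and 3.73% with Bojungikgi-tang. A list of 12 targets and inducers covered the integrated stress response, which can act upstream of ATF3. Of these, 12 rose with high Scutellaria and 12 with high dried ginger against vehicle (edgeR). The median log2 change was 1.33 and 1.07, where the median of all genes was 0.01. Whether this response acted on ATF3 here was not tested. NIBAN1 rose from 10.6 to 58.0 CPM with Scutellaria and to 79.7 CPM with dried ginger, and TRIB3, a pseudokinase of that response, from 69.5 to 271.7 and 202.5 CPM. With high fresh ginger 12 of 12 rose as well, with a median of 0.43, while ATF3 did not pass the test. With high Sayeok-tang 8 rose and with high Pinellia 0 rose and 1 fell.

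Of 20 ERK outputs and feedback genes, 14 rose and 1 fell with both high Scutellaria and high dried ginger. DUSP6, an ERK phosphatase, went from 10.2 to 14.7 CPM with Scutellaria and to 14.6 CPM with dried ginger. With high Sayeok-tang 4 rose and 2 fell, and with high Bojungikgi-tang 0 of 19 tested passed. Of 10 ligands and receptors of the EGF receptor family, 6 rose with high Scutellaria and 6 with dried ginger, where 1 fell. EREG, an EGF receptor ligand, rose from 164.8 CPM to 302.6 CPM with Scutellaria, 328.7 CPM with dried ginger and 230.2 CPM with Sayeok-tang.

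Other immediate early genes did not move as 1 group. Of 41, 11 rose and 15 fell with high dried ginger, 15 rose and 9 fell with high Scutellaria, and 8 rose and 10 fell with high Sayeok-tang. Of the NR4A orphan nuclear receptors in that list, NR4A1 and NR4A3 fell against vehicle (edgeR) at the high dose of both gingers and both formulas. NR4A1 went from 38.4 CPM in vehicle to 10.5 CPM with high dried ginger, 19.2 CPM with Sayeok-tang, 19.6 CPM with fresh ginger and 25.96 CPM with Bojungikgi-tang, and NR4A3 from 8.77 to 1.73, 3.76, 4.28 and 6.05 CPM. TIPARP, a target of the aryl hydrocarbon receptor, rose from 35.1 CPM to 104.8, 78.5, 59.5 and 55.1 CPM in the same 4 groups. With Scutellaria KLF2, a Krüppel-like factor, rose from 6.06 to 13.3 CPM and PPP1R15A, a stress-induced phosphatase subunit, from 28.2 to 60.5 CPM. Of 13 SRF targets of the cytoskeleton, 7 of 12 tested fell with each of high dried ginger, fresh ginger and Scutellaria, ACTB from 5676 to 4191, 4533 and 4389 CPM. The genes of SRF and its cofactors numbered 8, of which 2 rose and 1 fell with Scutellaria and 2 rose and 2 fell with dried ginger. Beside shares of 40.3% and 39.2% over all genes, these counts are not read as a trait of the list.

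Among 17 AP-1 target genes of matrix and invasion, 8 rose and 1 fell with high dried ginger, 7 rose and 1 fell with Scutellaria and 5 rose and 1 fell with Sayeok-tang, of 12 tested. ITGA2, an integrin chain, went from 30.5 CPM in vehicle to 79.8, 59.45 and 40.96 CPM in these groups. Among 23 other Fos, Jun, ATF and Maf family members, 8 rose and 2 fell with dried ginger and 10 rose and 0 fell with Scutellaria. The share of all genes called there was 39.2% and 40.3%, so these counts are not read as a trait of the family. JDP2, a partner of Jun, went from 23.9 to 32.5 CPM with Scutellaria.

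Genes whose levels ran most like the members' over the 25 group means were named by rule (Pearson correlation of log2(CPM + 0.5), among 10935 genes). The points are means of groups that share vehicle and depth, so these are descriptions. FOSL1 was closest to GREM1 (0.97), a BMP antagonist, then IER3 and TIPARP. ATF3 was closest to DDIT3 (0.97), also a stress-inducible factor, GOT1 and CDKN1A. JUN was closest to SH3KBP1 (0.97), RAI14 and MICALL1, and FOS to TACC2 (0.88), NTS and EDARADD. DUSP1 was closest to KLF6 (0.84). Among the members, FOSL1 ran with JUN and IER3 (0.96 each) and against FOS (-0.81).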

How the data were processed

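Gene counts of 60 libraries were RSEM expected counts as deposited by the authors. FastQC 0.11.9, Trim Galore 0.6.5, STAR 2.7.3a and RSEM 1.3.3 with hg38 are named in the submitters' processing notes. The annotation release and strand setting are not given in the sources used here. Counts were rounded to whole numbers (24.4% of non-zero values were not whole), and 209 columns were not used. Each extract pair of a label set was fitted with the 3 vehicle libraries in edgeR 4.0.16 (R 4.3.3): filterByExpr at a minimum count of 10, TMM, robust quasi-likelihood F tests, Benjamini-Hochberg adjustment over all genes, called under 0.05. The 5-extract test used all 60 libraries. This test gives no standard error, so each SE is the absolute log2 change divided by the square root of its F statistic. The script was checked on simulated data. Members and lists were chosen with earlier results of these data known. In each list, up to 4 called genes of largest change qualified for naming. Alternatives were RLE scaling, no filter, all libraries in 1 fit, DESeq2 1.42.0, a replicate block and leaving out each library. Same-numbered libraries did not deviate together.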

Additional observations from a re-analysis of the deposited data

Results flagged for a closer look

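The change from low to high dose differed between fresh and dried ginger, by a test of that difference itself, for 6 members (edgeR, fresh minus dried, log2 units): FOSL1 by -0.76, JUN by -0.73, IER3 by -0.47, JUNB by -0.45, ATF3 by -0.38 and DUSP1 by -0.17. The ATF3 difference was lost with DESeq2 (adjusted p = 0.0867), and those of ATF3 and DUSP1 without the filter on low counts (adjusted p of 0.0756 and 0.088 by edgeR). Between Sayeok-tang and Bojungikgi-tang the dose change of FOSL1 differed by 0.39.

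Over the 5 extracts given at 500 and 20 µg/mL, the edgeR test of any difference in dose change gave adjusted p-values of 6.9e-11 for JUN, 3.87e-09 for FOSL1, 1.63e-07 for IER3, 7.66e-06 for JUNB and 1.22e-05 for ATF3. For the other 4 members the adjusted p by edgeR was 0.000462 for FOS, 0.000725 for DUSP1, 0.0175 for FOSB and 0.0278 for IER2.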

How the results depend on the processing

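Across 2829 recomputed member values, 2704 kept their side of the threshold, 89 lost the call and 36 gained one. No value called in either fit changed sign, while uncalled values near 0 could. RLE scaling changed no member call. With all 60 libraries in 1 fit, the members called became 0 for medium Bojungikgi-tang and for its high against low dose, 1 for the formulas at the high dose, 2 for low fresh ginger, and 1 for each of high Pinellia, medium Scutellaria and low Scutellaria. Against vehicle it also gave 5 for high Sayeok-tang, 2 for high Bojungikgi-tang and 3 for high fresh ginger. High against low dose became 4 for fresh ginger and 9 for dried ginger. The fit of all 60 libraries called 8, 8 and 3 members for high, medium and low Coptis, each resting on 1 library assumed to vary like the other groups. DESeq2 called 1 member for the formulas and 1 for low Scutellaria, and gave no adjusted p for 81 of 280 member values, so the formula interaction has no DESeq2 count. Against vehicle DESeq2 called 8 for high Scutellaria (IER3 lost, adjusted p = 0.0505) and 5 for high Sayeok-tang (JUNB lost, adjusted p = 0.0546). It called 3 for high fresh ginger. Without the filter the counts were 3 for high, 3 for medium and 3 for low Pinellia, 1 for Pinellia high against low, and 4 for low Scutellaria. They were 3 for the formulas, 3 for high fresh ginger, 4 for its high against low dose and 8 for high dried ginger against vehicle. Same-numbered libraries did not deviate together (correlations -0.051 to 0.099), and the replicate block gave 2 for medium Pinellia, 2 for low Pinellia, 4 for low Scutellaria, 4 in place of 3 for fresh ginger high against low (JUN gained) and 7 in place of 6 for the ginger difference of dose changes (FOS gained, adjusted p = 0.0314 by edgeR). That difference gave 5 members with DESeq2 and 5 without the filter. Leaving out 1 library gave 0 to 2 members for medium and for low Bojungikgi-tang, 0 to 1 for its high against low dose, 1 to 2 for the formulas, 1 to 2 for high, 0 to 1 for medium and 1 to 3 for high against low fresh ginger, 1 to 2 for medium dried ginger, 1 to 1 for high, 0 to 2 for medium and 0 to 2 for low Pinellia, 1 to 2 for medium and 0 to 4 for low Scutellaria. Against vehicle it gave 5 to 6 for high Sayeok-tang, 2 to 3 for high Bojungikgi-tang, 8 to 9 for high dried ginger and 8 to 9 for high Scutellaria. High against low dose gave 7 to 9 for dried ginger and 8 to 9 for Scutellaria, and the gingers at the high dose 8 to 9. The differences of dose changes and the 5-extract test were not rerun without single libraries. Of 88 member calls, 62 held whichever library was left out. Depth limits FOSB, EGR1 and FOS, with at most 62, 81 and 144 counts per library.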
